A study of Rattus norvegicus and Mus musculus with 24 samples.

Results

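GALNT13 and its relatives are the polypeptide GalNAc transferases, the enzymes that start mucin-type O-glycosylation. The group described here was 10 listed genes (GALNT1, GALNT2, GALNT3, GALNT4, GALNT7, GALNT10, GALNT11, GALNT12, GALNT13 and GALNT14), matched by symbol. Of these 10, 9 were matched among the 17376 symbols of the mouse kidney data and 9 among the 14931 symbols of the rat kidney data, and GALNT4 was not analysed here. GALNT13 was listed because of its difference between knockout and wild-type rats, so that difference is given as a description without a test. The other members belong to the same enzyme family, and the list was made with earlier results of these data known. It leaves out other genes of the family, which are given separately below.

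RNA sequencing covered 4 Ctns KO and 4 Ctns WT mice and 8 Ctns KO and 8 Ctns WT rats, with 1 library per animal. Ctns encodes cystinosin, the lysosomal cystine transporter, and its constitutive loss models cystinosis, with a C57BL/6 background in the mice and a Sprague-Dawley background in the rats. The study's methods and the tissue label give kidney cortex for these libraries, while the cell type label names proximal tubule cells and the extraction label dissected tubules. The rats carry the numbers 17 to 24 or 25 to 32, each range with 4 KO and 4 WT animals, and what separates the ranges is not given in the sources used here. The study's reporting text gives its mice as female and of several ages. Which age was sequenced, and the age and sex of the rats, are not given in the sources used here.

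These enzymes sit in the Golgi apparatus and transfer N-acetylgalactosamine from UDP-GalNAc to serine or threonine of proteins passing through the secretory pathway. Some members act first on bare peptides, GALNT1 and GALNT2 being the broadly expressed examples, while others, such as GALNT7, GALNT10 and GALNT12, prefer peptides that already carry a GalNAc. GALNT11 is the member best known from the kidney tubule, where it modifies the endocytic receptor megalin (LRP2), GALNT3 is known for protecting the phosphate hormone FGF23 from cleavage, and GALNT13 is known mainly from neurons.

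The libraries held 24684097 to 40629873 reads on genes per rat and 19309371 to 44449845 per mouse. CTNS read 0.319 to 0.342 in KO mice and 0.824 to 1.03 in WT mice on the scaled value of the mouse data, in which the 75th percentile of a library is 1. In rats it ran from 16.8 to 22.96 CPM (reads on the gene per 1e+06 reads on all genes) in KO and from 18.99 to 26.4 CPM in WT kidneys, and it fell in rats 25 to 32 (log2 fold change -0.32, edgeR adjusted p = 0.0391, but -0.16 and adjusted p = 0.314 with library totals in place of TMM scaling). CTNS thus separated the genotypes in mice and overlapped in rats. The summed level of 6 proximal tubule markers was 6425 to 8434 CPM in KO and 9150 to 11856 CPM in WT rats. For 5 distal nephron markers it was 4196 to 5040 CPM in KO and 2675 to 4427 CPM in WT rats. Of these 5, 3 passed as higher and 0 as lower in KO (edgeR over all rats), beside 15.2% and 12.3% of all symbols. The same counts held in numbers 25 to 32 (4203 to 5040 CPM in KO, 2675 to 3374 CPM in WT), beside 21.8% and 22.1%. In numbers 17 to 24, 0 of 5 passed (4196 to 4618 against 3942 to 4427 CPM). Between WT rats, 4 of 5 were lower in numbers 25 to 32 than in 17 to 24, beside 9.43% of all symbols. One mouse stood apart: KO mouse 3 had 2.54 CPM of XIST against 892 to 1121 CPM in the other mice, and no call of a member changed without it. Of 7 Y-linked genes looked for, 5 were matched in the mouse data, with 0 reads in every KO and WT mouse. The cause of the low XIST level was not tested.

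In the rat, start regions of 7 of the 10 members were found in RefSeq (assembly GRCr8), each with 250 bases before and 50 bases after a transcript start. Those of Galnt11 and Galnt14, which were lower in KO rats numbered 25 to 32, and of Galnt12, which was higher there, are shown because their windows lie within 14 bases of the annotated gene start. Capitals mark the motif matches named below, and the strand is that of the gene.
Galnt11, chr4:10604925-10605224, minus strand: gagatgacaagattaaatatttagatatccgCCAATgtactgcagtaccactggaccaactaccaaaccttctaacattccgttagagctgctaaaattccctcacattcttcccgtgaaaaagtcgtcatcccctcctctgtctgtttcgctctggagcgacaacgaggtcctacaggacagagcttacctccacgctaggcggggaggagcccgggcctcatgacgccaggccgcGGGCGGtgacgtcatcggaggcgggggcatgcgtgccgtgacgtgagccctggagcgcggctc
Galnt14, chr6:27507628-27507927, plus strand: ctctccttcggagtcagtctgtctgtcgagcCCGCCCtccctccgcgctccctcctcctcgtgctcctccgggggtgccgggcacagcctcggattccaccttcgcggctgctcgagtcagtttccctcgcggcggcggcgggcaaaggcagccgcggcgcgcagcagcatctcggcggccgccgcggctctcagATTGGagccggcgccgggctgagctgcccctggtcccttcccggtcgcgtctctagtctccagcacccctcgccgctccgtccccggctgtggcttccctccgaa
Galnt12, chr5:66179935-66180234, plus strand: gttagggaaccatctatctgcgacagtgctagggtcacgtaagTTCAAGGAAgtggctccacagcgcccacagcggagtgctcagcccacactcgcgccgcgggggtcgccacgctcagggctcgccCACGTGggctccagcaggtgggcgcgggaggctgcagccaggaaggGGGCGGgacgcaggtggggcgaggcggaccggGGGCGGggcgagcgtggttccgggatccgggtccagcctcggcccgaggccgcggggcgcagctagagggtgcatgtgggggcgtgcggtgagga

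The 8 kinds of motif searched for on both strands are given here by name and, where short, by their letters. Galnt11 and Galnt14 each held 1 GC box (GGGCGG) and 1 CCAAT box (CCAAT), while Galnt12 held 2 GC boxes, 1 E-box (CACGTG) and 1 STAT site (TTCNNNGAA). Over all 33469 rat start regions of this length, 33.06% held the GC box, 37.49% the CCAAT box, 6.418% the E-box and 8.874% the STAT site. The TATA box (TATAAA, 14.22% of start regions), the AP-1 site (TGANTCA, 7.329%), the HNF1 site (0.002988%) and the HNF4 site (AAAGTCCA, 1.365%) had no match in these 3 windows. The windows were rich in CpG, with 22, 37 and 31 CpG dinucleotides for Galnt11, Galnt14 and Galnt12 against a median of 7 over all start regions. For Galnt3 the window began 12998 bases inside the annotated gene, and it is not shown. The matches describe the letters only.

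GALNT13 had almost no reads in WT rats and was present in every KO rat. In WT rats numbered 17, 19, 21 and 23 it had 1, 0, 0 and 3 reads, and in those numbered 25, 27, 29 and 31 it had 0, 2, 1 and 2 reads. In KO rats numbered 18, 20, 22 and 24 it had 28, 71, 45 and 45 reads, which is 0.898, 2.51, 1.63 and 1.44 CPM. In KO rats numbered 26, 28, 30 and 32 it had 81, 122, 85 and 42 reads, which is 2.60, 4.30, 2.81 and 1.70 CPM. The lowest KO rat thus lay far above the highest WT rat, at 0.0943 CPM, and a WT rat without a read could have held up to 0.0921 to 0.105 CPM at this depth (3 reads).

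Summed over animals, KO rats had 519 GALNT13 reads and WT rats 9, a ratio of 61.9 after division by library totals (exact 95% interval 32.4 to 136, counting error only). Within the ranges the ratio was 48.5 (18.6 to 180.0) for numbers 17 to 24 and 74.0 (31.4 to 229) for numbers 25 to 32, from 189 against 4 reads and from 330 against 5 reads. Even in KO rats the level was low beside that of its relatives, 2.24 CPM ± 1.06 (SD, n = 8). GALNT11 stood at 401 CPM ± 94.0 (SD, n = 8) in the same animals, without correction for transcript length.

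**Figure D1:**
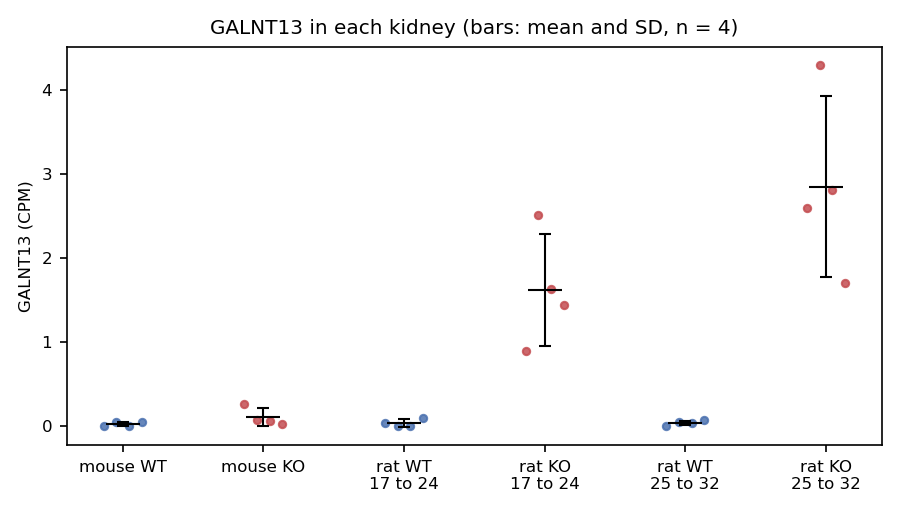
GALNT13 in CPM (vertical axis) in each of the 8 mice and 16 rats, by genotype and, for rats, number range; bars give the mean and SD of 4 animals. All 8 KO rats lie between 0.898 and 4.30 CPM, whereas the WT rats and both groups of mice lie at 0.259 CPM or below.

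In mice the same transferase was at the edge of detection. KO mice numbered 3, 5, 6 and 8 had 5, 2, 2 and 1 reads and WT mice numbered 1, 2, 4 and 7 had 0, 1, 0 and 2 reads. The groups overlapped, and the difference did not pass the test (limma, adjusted p = 0.489). The ratio of summed reads, 10 against 3, was 3.82 with an exact 95% interval of 0.983 to 21.6, an interval that reaches below 1. In the mm10 assembly Galnt13 lies at chr2:54436317-55118309 on the plus strand. Its mouse transcripts share a stretch of 31 bases with 1 of 18 other family genes, 1 of 20 bases with 4, and no stretch of 100 bases with any. Rat transcripts were not compared.

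Among KO rats, GALNT13 was higher in numbers 25 to 32 than in numbers 17 to 24, 2.85 CPM ± 1.08 against 1.62 CPM ± 0.669 (SD, n = 4 each). Both sets of KO rats overlapped. The log2 fold change was 0.81 (SE 0.32, edgeR adjusted p = 0.0436, 24.2% of all symbols being called higher and 22.8% lower), and it was lost in 7 of 16 fits that left out 1 rat (KO 18, 22, 24, 26, 28 or 30 or WT 29, adjusted p up to 0.195) and with DESeq2 (adjusted p = 0.0533). GALNT13 was listed for the difference of these same KO rats from WT rats, so its p-values here are a description. In WT rats the ranges held 4 and 5 GALNT13 reads in all, too few to compare.

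The genes whose log2 CPM followed GALNT13 most closely over all 16 rats were FAM111A, KIF23, MKI67, DLGAP5 and ARHGAP11A. MKI67 is the proliferation marker Ki-67, and KIF23, DLGAP5 and ARHGAP11A are known from mitosis and cytokinesis. These 5 differ between genotypes themselves, MKI67 for example with 25.8 CPM in KO against 5.32 CPM in WT rats on average. The rats also group by genotype and by number range, so no coefficient is given over all of them. Within the 8 KO rats the closest were IFI16 (Pearson r = 0.955), UNC13D (0.941), CEP55 (0.935), JUNB (0.930) and TOR4A (0.927). These points share number range and library, the 5 were picked from all tested symbols, and the coefficients are a description.

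Several marker lists moved with GALNT13. The summed level of 4 cycling cell markers was 31.5 to 70.9 CPM in KO and 8.90 to 12.1 CPM in WT rats, and that of 5 injured tubule markers was 167 to 680.3 CPM against 95.2 to 122 CPM, with 4 of 4 and 5 of 5 higher by the edgeR test over all rats. In that test 15.2% of all symbols passed as higher, the share to set beside the marker counts over all rats here. Markers of macrophages (6 genes, 134 to 373 against 86.2 to 138 CPM) and fibroblasts (6 genes, 236 to 469 against 169 to 213 CPM) passed as higher in KO rats for 5 of 6 and 6 of 6 genes. The 6 lymphocyte markers summed to 3.79 to 12.4 CPM in KO and 2.30 to 4.23 CPM in WT rats, with 3 of the 3 tested passing as higher. The 9 neuron and glia markers, of interest since GALNT13 is known from neurons, summed to 5.71 to 8.27 CPM in KO and 3.47 to 8.87 CPM in WT rats, with TH and DBH at 0 in all WT rats, and of the 3 that passed the filter on low counts 0 passed the edgeR test over all rats (SYT1 with adjusted p = 0.605 and S100B with adjusted p = 0.753 among them, 0 at an unadjusted p under 0.05), with 1 call by DESeq2, which tested more of the list. The neuronal tubulin gene TUBB3 had 52 to 75 reads in KO and 2 to 8 reads in WT rats numbered 25 to 32, and 5 to 18 against 0 to 7 reads in numbers 17 to 24. It rose in the former range (log2 fold change 3.75, SE 0.31, edgeR adjusted p = 1.26e-05). There it was the 1 of 3 tested that passed, beside 21.8% of all symbols as higher. The neuron and glia list summed there to 5.71 to 7.57 CPM in KO and 3.47 to 5.25 CPM in WT rats. In numbers 17 to 24 the list summed to 6.58 to 8.27 against 6.44 to 8.87 CPM, and 0 of 3 passed. TUBB3 had too few reads for the filter over all rats and in numbers 17 to 24. The counts of 0 of 3 tested there thus do not cover it. In mice 5 of 5 cycling markers passed as higher in KO (limma, summed level 48.7 to 96.7 against 9.85 to 16.8 CPM), with GALNT13 at the reads given above. Markers of fibroblasts (274 to 315 against 139 to 172 CPM), macrophages (163 to 191 against 107 to 113 CPM) and injured tubules (125 to 145 against 81.7 to 95.0 CPM) passed as higher in KO mice for 4 of 6 genes each. Of all symbols in mice, 3.5% passed as higher. The part of these cells in the GALNT13 level was not tested, and in whole tissue fewer cells of a type and less RNA per cell cannot be told apart.

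The other 8 members analysed in the rat did not move as a block. Between all KO and all WT rats GALNT3 and GALNT12 rose, GALNT11 and GALNT1 fell, and GALNT2, GALNT7, GALNT10 and GALNT14 did not pass the test (edgeR quasi-likelihood, Benjamini-Hochberg adjusted p under 0.05). Of all 11584 symbols tested, 27.5% passed, 15.2% as higher and 12.3% as lower in KO, so 4 of 8 is to be read against that share. The median log2 fold change of the 8 was -0.15, and that of all symbols was -0.020. The p-values set each difference against the spread within the genotypes, which in this fit also holds the difference between the number ranges.

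GALNT3 rose in every comparison of KO with WT rats. In WT rats 17, 19, 21 and 23 it was at 29.4, 25.3, 32.6 and 26.9 CPM, and in KO rats 18, 20, 22 and 24 at 46.1, 58.0, 49.1 and 47.4 CPM. In WT rats 25, 27, 29 and 31 it was at 23.99, 27.4, 21.9 and 24.2 CPM, and in KO rats 26, 28, 30 and 32 at 48.0, 68.3, 53.9 and 65.2 CPM. All 8 KO rats lay above all 8 WT rats, which held in the KO direction for 5.21% of the symbols tested. The log2 fold change was 0.95 (SE 0.093, edgeR adjusted p = 2.55e-06), 1.94-fold higher in KO, and it passed in all 16 fits that left out 1 rat. It was 0.79 (SE 0.096, adjusted p = 0.000445) in numbers 17 to 24, where 8.46% of symbols lay apart in this direction, and 1.11 (SE 0.12, adjusted p = 5.44e-05) in numbers 25 to 32. Of the 8 members, GALNT3 was the single one that passed in numbers 17 to 24, where 7.26% of symbols did, 5.07% as higher and 2.19% as lower.

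GALNT12, which acts on peptides that already carry GalNAc, was 10.4, 10.6, 10.8 and 12.7 CPM in KO rats 18 to 24 and 8.20, 12.1, 7.61 and 9.24 CPM in WT rats 17 to 23. Rats 25 to 32 had 13.0, 17.1, 17.1 and 12.6 CPM in the KO and 10.1, 9.03, 9.95 and 10.2 CPM in the WT group. The genotypes overlapped in the first range and separated in the second, which 35.3% of symbols did there in this direction. Over all rats the log2 fold change was 0.35 (SE 0.12, edgeR adjusted p = 0.0353), which was lost in 7 of 16 fits that left out 1 rat (KO 26, 28 or 30 and WT 17, 21, 23 or 27, adjusted p up to 0.0806). Among rats 25 to 32 alone it was 0.44 (SE 0.12, adjusted p = 0.0126) and passed in all 8 such fits.

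GALNT11, the member with the most reads, fell. In numbers 17 to 24 it was at 581, 516, 685 and 493 CPM in WT and at 479, 501, 529 and 423 CPM in KO rats. Rats 25 to 32 were at 523, 512, 538 and 635 CPM in WT and at 311, 287, 332 and 345 CPM in KO rats. The KO rats of the second range all lay below all WT rats, and those of the first overlapped with them. Within numbers 25 to 32, 8.73% of symbols lay apart in this direction. Over all rats the log2 fold change was -0.58 (SE 0.13, edgeR adjusted p = 0.00385), and it passed in all 16 fits that left out 1 rat. It was -0.25 (SE 0.11, adjusted p = 0.222) in numbers 17 to 24 and -0.96 (SE 0.099, adjusted p = 4.49e-05), 0.515 of the WT level, in numbers 25 to 32.

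GALNT14, a close relative of GALNT2, followed GALNT11 in the second range. In numbers 17 to 24 it was at 83.4, 76.8, 108 and 118 CPM in WT and at 114, 67.8, 96.4 and 77.8 CPM in KO rats, with overlap. Rats 25 to 32 were at 69.6, 74.9, 78.0 and 79.8 CPM in WT and at 51.2, 46.4, 45.3 and 52.9 CPM in KO rats, with none. The log2 fold change there was -0.79 (SE 0.085, edgeR adjusted p = 5.97e-05) and passed in all 8 fits that left out 1 rat. Over all rats it was -0.41 (SE 0.19, adjusted p = 0.119), and it passed without KO rat 18 (adjusted p = 0.0242) and in a fit that held the number range as a term (adjusted p = 0.0124).

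Markers of the proximal tubule were lower in the same rats: 4 of 6 fell in KO rats, beside 12.3% of all symbols. Among them were the phosphate transporter SLC34A1 (log2 fold change -0.63, SE 0.094, edgeR adjusted p = 0.000175) and the water channel AQP1 (-0.67, SE 0.12, adjusted p = 0.000702). Over rats 25 to 32 the list summed to 6425 to 7392 CPM in KO and 10902 to 11856 CPM in WT rats, with 5 of 6 lower, beside 22.1% of all symbols. In numbers 17 to 24 it summed to 7780 to 8434 against 9150 to 11135 CPM, with 2 of 6 lower, beside 2.19%. Between WT rats, 3 of 6 were higher and 1 lower in numbers 25 to 32 than in 17 to 24 (edgeR), beside 11.7% and 9.43%. The part of these marker differences in the levels of GALNT11 and GALNT14 was not tested.

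**Figure D2:**
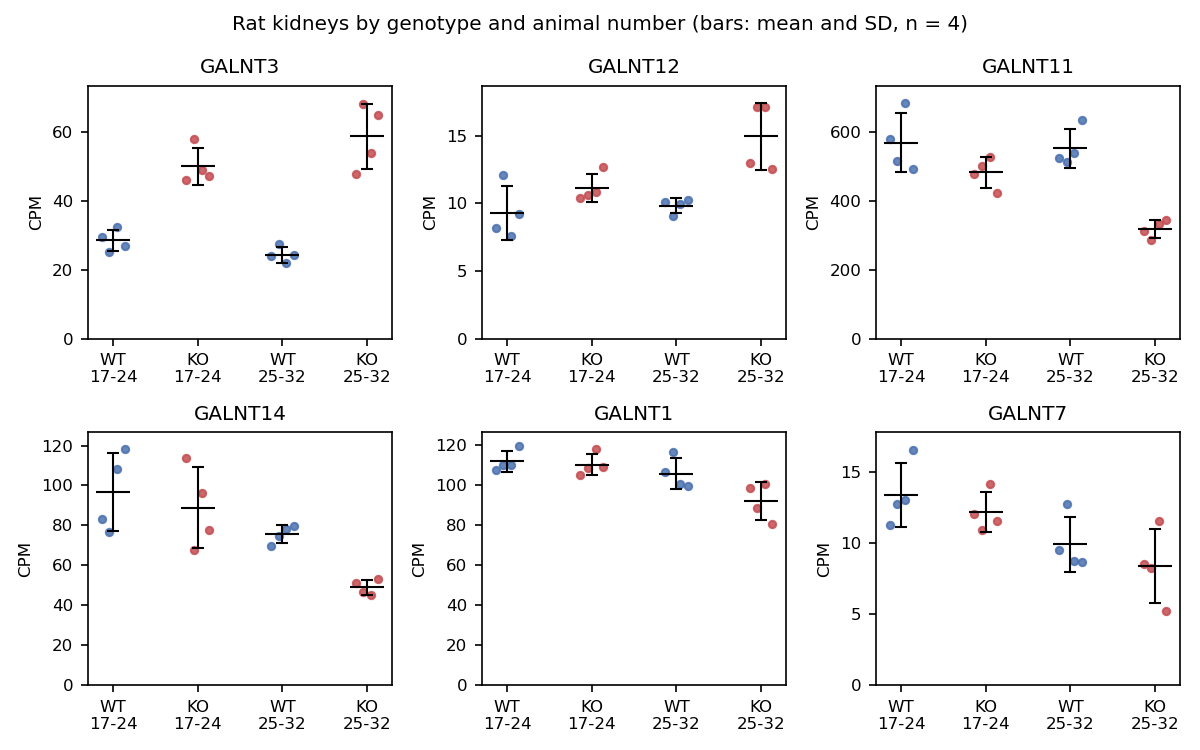
CPM (vertical axes, from 0) of 6 members in each rat, by genotype and number range; bars give the mean and SD of 4 animals. GALNT3 separates KO from WT rats in both ranges, and GALNT11, GALNT14 and GALNT12 do so in numbers 25 to 32.

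The broadly expressed initiators GALNT1 and GALNT2 shifted little. GALNT1 ran from 80.3 to 118 CPM (median 103) in KO and from 99.3 to 119 CPM (median 109) in WT rats, and GALNT2 from 168 to 194 CPM (median 182) against 167 to 204 CPM (median 184), both with overlap. The fit scales libraries by TMM factors of 0.890 to 1.08, and relative to that scale GALNT1 fell by 0.20 (log2, SE 0.065, edgeR adjusted p = 0.0327) over all rats. GALNT2 was at -0.099 there (log2, SE 0.041, edgeR adjusted p = 0.0794). It passed with DESeq2 (adjusted p = 0.0300) but not with library totals (-0.0070, adjusted p = 0.929). It also passed in the fit with the number range as a term (-0.10, edgeR adjusted p = 0.0457). In that fit 6 of the 8 members passed in place of 4, while the symbols called rose from 3180 to 4551 in all. Among rats 25 to 32 GALNT1 fell by 0.36 (SE 0.072, adjusted p = 0.00257) and GALNT2 by 0.17 (SE 0.052, adjusted p = 0.0232, lost without KO 28 or 32 or WT 27 or 29, adjusted p up to 0.0713). With library totals in place of TMM, an alternative added after seeing the data, GALNT1 was at -0.10 (adjusted p = 0.283) over all rats and -0.20 (adjusted p = 0.0715) in numbers 25 to 32, and GALNT2 at -0.0063 (adjusted p = 0.933) in the latter, so none passed. The change of scaling moved the median of all symbols by 0.16 in numbers 25 to 32 and the share of higher among all calls there from 49.7% to 78.9%. GALNT3, GALNT11, GALNT12 and GALNT14 kept their calls in numbers 25 to 32 under both scalings. The overall GALNT1 call was also lost in 10 of 16 fits that left out 1 rat (KO 18, 26, 28, 30 or 32 and WT 23, 25, 27, 29 or 31, adjusted p up to 0.0997).

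GALNT7 and GALNT10, both of which act on partly glycosylated peptides, did not pass in any comparison of KO with WT rats. GALNT7 ran from 5.23 to 14.2 CPM in KO and from 8.64 to 16.5 CPM in WT rats, with a log2 fold change of -0.27 (SE 0.16, edgeR adjusted p = 0.246). GALNT10 ran from 11.2 to 17.8 CPM in KO and from 10.9 to 15.8 CPM in WT rats, with a log2 fold change of 0.044 (SE 0.090, adjusted p = 0.748). For rats 25 to 32 alone GALNT7 was at -0.40 (adjusted p = 0.127) and passed without KO rat 30 (adjusted p = 0.0339).

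**Figure D3:**
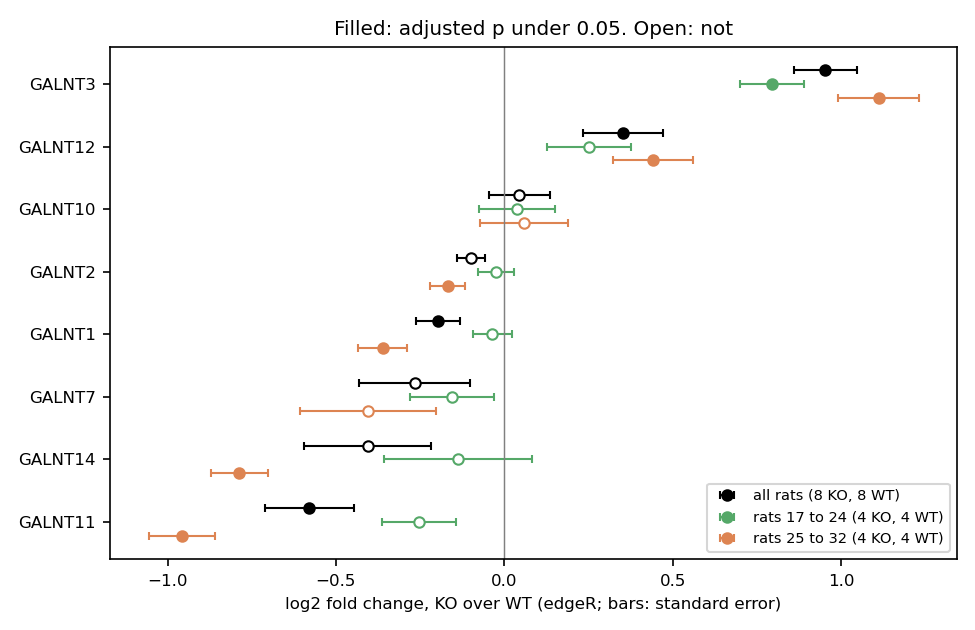
Log2 fold change of KO over WT (horizontal axis) with its standard error for the 8 members other than GALNT13, in all rats and in each number range; filled points passed the edgeR test at an adjusted p of 0.05. GALNT3 and GALNT12 lie right of 0 in all 3 fits and GALNT11 and GALNT14 left of 0, farthest in numbers 25 to 32.

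Among rats 25 to 32, where 43.8% of symbols passed (21.8% as higher, 22.1% as lower), 6 of the 8 members did, 2 as higher (GALNT3 and GALNT12) and 4 as lower (GALNT11, GALNT14, GALNT1 and GALNT2, the last 2 not with library totals). Whether the genotype change itself differed between ranges was tested in a fit of all 16 rats, in which 14.7% of symbols passed, 7.1% as higher and 7.64% as lower, or with library totals 86.9% of calls as higher in place of 48.2%. GALNT11 did, with a change lower by 0.70 on the log2 scale in numbers 25 to 32 (SE 0.16, edgeR adjusted p = 0.00950), and it passed in all 16 fits that left out 1 rat. GALNT1 did as well (-0.32, SE 0.089, adjusted p = 0.0242), but with library totals it was at -0.18 (adjusted p = 0.208), and it was lost without KO rat 22, 28 or 32 or WT rat 19 or 27 (adjusted p up to 0.0577). GALNT14 was at -0.65 (SE 0.23, adjusted p = 0.0672) and passed with DESeq2 (adjusted p = 0.0337). For GALNT3 the difference of 0.32 (SE 0.17, adjusted p = 0.189) did not pass, except narrowly with library totals (0.46, adjusted p = 0.0494).

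The ranges were also set against each other within a genotype. In WT rats 0 of the 8 members other than GALNT13 passed (edgeR, adjusted p from 0.234 to 0.762, 0 at an unadjusted p under 0.05, 0 with DESeq2), while 21.1% of all symbols did (11.7% as higher, 9.43% as lower), and GALNT11 was at 569 CPM ± 86.1 in numbers 17 to 24 and 552 CPM ± 56.6 in numbers 25 to 32 (SD, n = 4 each). In KO rats 6 of 9 passed against 47% of all symbols by this test, GALNT12 and GALNT13 as higher and GALNT1, GALNT7, GALNT11 and GALNT14 as lower in numbers 25 to 32. That count includes GALNT13, which was listed for its difference between these KO rats and WT rats. The call of GALNT7 was lost without KO rat 22 or 32 (adjusted p up to 0.0579) and that of GALNT12 without KO rat 28 (adjusted p = 0.0555). GALNT11 there was at 319 CPM ± 25.3 against 483 CPM ± 44.6 (SD, n = 4 each), with a log2 fold change of -0.61 (SE 0.11, adjusted p = 0.000520). GALNT14 was at 49.0 CPM ± 3.69 against 88.9 CPM ± 20.3 (log2 fold change -0.88, SE 0.16, adjusted p = 0.000658). These comparisons use the same KO rats as those above.

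In mice no member passed the test. Of 17376 symbols 4.32% did, 3.5% as higher and 0.817% as lower (limma on log2(scaled value + 1), which understates changes of low values), against 0 of the 9 members, 1 of them at an unadjusted p under 0.05 and 0 with edgeR or DESeq2 on the recovered reads. By level per kilobase of exon (GENCODE vM21, mm10), GALNT11 led in WT mice with 128 CPM per kilobase ± 9.98 (SD, n = 4), from the gene at chr5:25221904-25265918. GALNT1 followed with 20.2 ± 1.70, GALNT3 (chr2:66082766-66124994) with 13.5 ± 1.56, GALNT14 (chr17:73493228-73710453) with 9.74 ± 0.655, GALNT10 with 4.70 ± 0.378, GALNT7 with 2.86 ± 0.474 and GALNT12 with 1.90 ± 0.212 CPM per kilobase. GALNT2 was at 0.124 ± 0.0331 and GALNT13 at 0.00306 CPM per kilobase. The ranges of neighbours in this order did not overlap, the closest being GALNT7, with a lowest mouse at 2.31, and GALNT12, with a highest mouse at 2.17 CPM per kilobase. No such order is given for the rat, for which no transcript lengths were used.

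GALNT11 was at scaled values of 18.5, 19.2, 16.6 and 20.5 in WT mice 1, 2, 4 and 7 and of 15.6, 16.1, 16.9 and 17.7 in KO mice 3, 5, 6 and 8. The groups overlapped, and the log2 fold change was -0.16 (SE 0.070, limma adjusted p = 0.286). GALNT14 was at 1.26, 1.33, 1.11 and 1.18 in WT and at 0.935, 1.10, 1.13 and 1.09 in KO mice (log2 fold change -0.11, SE 0.041, adjusted p = 0.230). GALNT3 was at 1.05, 1.42, 1.24 and 1.30 in WT and at 1.07, 1.07, 1.06 and 1.14 in KO mice (log2 fold change -0.11, SE 0.049, adjusted p = 0.309). For GALNT12 the values were 0.0820 to 0.108 in WT and 0.0985 to 0.136 in KO mice (adjusted p = 0.303). GALNT1, GALNT7 and GALNT10 had adjusted p-values of 0.684 to 0.981 in the same limma fit.

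GALNT2 was far apart in reads between the data of the species, with 10 to 27 reads in each mouse against 4156 to 7619 reads in each rat. Whether these reads reflect the gene or the way symbols were assigned was not tested, so the mouse values of GALNT2 are given as listed.

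**Figure D4:**
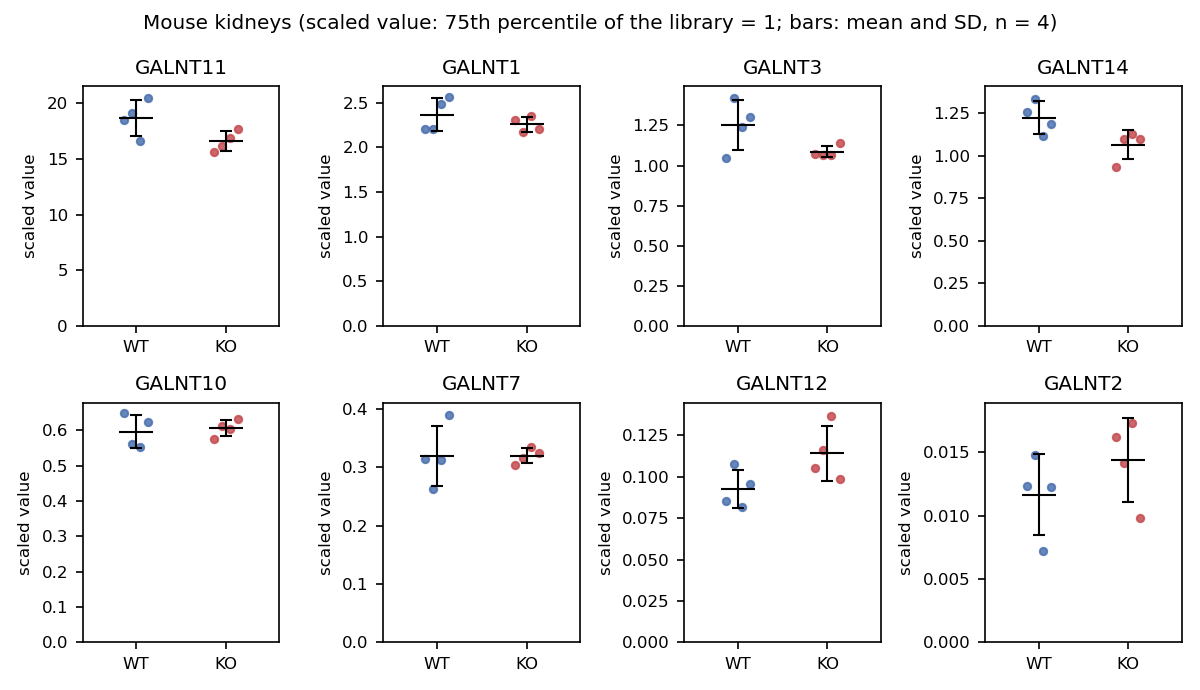
Scaled value (vertical axes, from 0, 75th percentile of a library = 1) of 8 members in each WT and KO mouse; bars give the mean and SD of 4 animals. The genotypes overlap for every member shown.

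A direct test of the genotype change between species ran over 11216 shared symbols, of which 3.17% passed, 1.8% as higher and 1.36% as lower. Of the 8 members tested, GALNT3 passed, with a change higher in rats than in mice by 0.55 on the log2(scaled value + 1) scale (SE 0.075, limma adjusted p = 9.10e-05), and it did in all 8 fits that left out 1 mouse. The rats hold both number ranges, for which this test had no term, and the mice neither. The code in the sample titles, the genome build and the form of the deposited values also differ between the species. These cannot be told apart from species. For GALNT11 the difference was -0.35 (SE 0.18, adjusted p = 0.303).

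Of the family members outside the list, 5 passed the filter on low counts in the rat. Between all KO and all WT rats 0 of 5 passed (edgeR), beside 27.5% of all symbols. The lowest edgeR adjusted p was 0.0901 for GALNT5, with 2 at an unadjusted p under 0.05 and 0 called by DESeq2. Among rats 25 to 32, GALNT18 (55.3, 59.5, 56.8 and 54.5 CPM in KO, 45.7, 36.0, 37.8 and 37.4 CPM in WT) rose by 0.37 on the log2 scale (SE 0.079, adjusted p = 0.00393). GALNT6 (0.81, adjusted p = 0.0323) and GALNT15 (0.74, adjusted p = 0.0479) rose there too, at 3.64 CPM or less. Of all symbols, 21.8% were called higher in that range. GALNT18 and GALNT15 also fell in WT rats of numbers 25 to 32 relative to 17 to 24, by 0.49 and 1.38 on the log2 scale (edgeR adjusted p = 4.73e-05 and 0.000854, beside 9.43% of all symbols). Between KO rats both were lower there too (log2 fold change -0.23 and -0.76, adjusted p = 0.00811 and 0.0137, beside 22.8%). The genotype change of GALNT18, GALNT6 and GALNT15 did not pass as different between ranges (edgeR adjusted p = 0.0654, 0.446 and 0.227), with 1 call in this list by DESeq2. Of the 9 such genes in the mouse 0 passed, beside 4.32% of all symbols (limma adjusted p from 0.232 upward, 2 at an unadjusted p under 0.05, 0 with edgeR or DESeq2 on the reads).

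A further list held genes related to extending the first GalNAc. Of its 10 genes tested in the rat, 3 were higher, 0 lower and 7 neither between all KO and all WT rats (median log2 fold change 0.14), against 15.2% of all symbols as higher and 12.3% as lower. In numbers 17 to 24, 0 of the 10 passed (edgeR, 2 at an unadjusted p under 0.05, 1 with DESeq2), with a median of -0.018. The sialyltransferases ST3GAL2 (43.1 CPM ± 4.42 in KO, 32.1 CPM ± 4.55 in WT, SD, n = 8 each) and ST3GAL4 (14.9 CPM ± 0.961 against 11.3 CPM ± 2.19) had log2 fold changes of 0.34 (SE 0.070, edgeR adjusted p = 0.00196) and 0.31 (SE 0.085, adjusted p = 0.0115). ST6GALNAC2, which adds sialic acid to the GalNAc itself, was at 46.3 CPM ± 3.39 against 35.4 CPM ± 6.80 (0.30, SE 0.088, adjusted p = 0.0166). Over rats 25 to 32, where 21.8% and 22.1% of symbols were called higher and lower, these 3 were higher in KO than WT with ST6GALNAC6, and C1GALT1, the core 1 synthase, was lower (-0.81, SE 0.23, adjusted p = 0.0148, but -0.65 and adjusted p = 0.0536 with library totals). The list summed there to 228 to 252 CPM in KO and 176 to 195 CPM in WT rats. In numbers 17 to 24 it summed to 234 to 258 CPM in KO and 232 to 243 CPM in WT rats. Between WT rats, 5 of the 10 were lower and 1 higher in numbers 25 to 32 than in 17 to 24, beside 9.43% and 11.7% of all symbols (edgeR). In mice 0 of 16 passed with limma, 5 at an unadjusted p under 0.05, 1 with edgeR and 2 with DESeq2 on the reads.

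Of the 8 genes that supply UDP-GalNAc, 1 passed in the rat, where 27.5% of all symbols did: GALK2, the N-acetylgalactosamine kinase, was lower in KO (105 against 114 CPM, log2 fold change -0.22, SE 0.051, edgeR adjusted p = 0.00413). In mice 0 of 8 passed with limma, 1 at an unadjusted p under 0.05 and 0 with edgeR or DESeq2 on the reads. Of proteins known to carry O-GalNAc, 4 of 7 tested rose in KO rats and 0 fell, and 3 of 8 rose in KO mice and 0 fell, beside 15.2% higher and 12.3% lower among all symbols in rats and 3.5% and 0.817% in mice. SPP1, osteopontin, was at 2676 CPM ± 1656 in KO and 209 CPM ± 54.0 in WT rats (log2 fold change 3.59, SE 0.35, adjusted p = 2.82e-06), and CD44, its receptor, at 30.7 CPM ± 14.1 against 9.15 CPM ± 0.888 (1.65, SE 0.23, adjusted p = 9.02e-05). LRP1 (0.22, adjusted p = 0.0460) also rose in rats. In mice SPP1 (1.03, limma adjusted p = 0.0110), CD44 (0.086, adjusted p = 0.00980) and LRP1 (0.22, adjusted p = 0.0215) rose on the log2(scaled value + 1) scale. LRP2, the megalin gene, was at 78.9 ± 7.76 in KO and 91.3 ± 6.76 in WT mice (scaled value, SD, n = 4 each, adjusted p = 0.277), and was not analysed in the rat. These are RNA levels, and no glycan was measured.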

How the data were processed

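RNA libraries (TruSeq Stranded mRNA, 100 ng RNA) were sequenced as paired reads of 100 nt from 4 KO and 4 WT mice and 8 KO and 8 WT rats. The submitters' processing notes name bcl2fastq 2.20, STAR 2.7.3, DESeq2 1.24.0, R 3.6.1 and the builds rn5 and mm10, and the counting tool, annotation and symbol conversion are not given in the sources used here. For the mouse the authors deposited a scaled signal, found from the values to be (reads + 0.5) / (75th percentile + 0.5). Reads recovered from it were whole within 0.01 for 99.0% of values. The rat values deposited by the authors are estimated counts, found to be reads plus 1/6, of which 97.7% were whole after removing it, and these were rounded. All values of the family were whole, and no member shared its values with another symbol.

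Groups came from the genotype labels and animal numbers from the titles. Mouse values were tested with limma 3.58.1 (trend, robust) on log2(value + 1) without a filter, rat counts with edgeR 4.0.16 (quasi-likelihood, robust, TMM, filterByExpr) in R 4.3.3, over all symbols, with Benjamini-Hochberg adjustment at 0.05. CPM in the text divides by library totals, while rat fold changes use TMM. Each number range was fitted alone, contrasts between ranges came from 1 fit of 4 groups, and the species were compared with limma on both scaled tables. edgeR and DESeq2 1.42.0 were also run on the recovered mouse reads, the former calling 1198 symbols. Scripts were tested on simulated data. Library totals ran from 19309371 to 44449845 reads in mice and from 24684097 to 40629873 in rats. Intervals on reads cover counting error only, and the number of animals limits the precision. Alternatives were other scalings, filters, pseudocounts, tools, a number range covariate and leaving out each animal.

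The members and lists were chosen with earlier results of these data known. Named were all members, other family genes, up to 3 largest rises and falls past the threshold per list and species, CTNS, and the 5 genes most like GALNT13 over all rats and over KO rats. Other markers are named beside results they move with. Promoters came from RefSeq (GRCr8) and mouse gene models from GENCODE vM21. Values of 2 genes of the lists are not reported here by name.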

Additional observations from a re-analysis of the deposited data

Results flagged for a closer look

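In 2 of the 72 groups of member values examined, 1 animal stood apart by Dixon's test, which chance does in about 1 of 20 groups. GALNT3 in KO mouse 8 had a scaled value of 1.14, whereas the other KO mice lay between 1.06 and 1.07. GALNT2 in KO rat 18 was at 180.1 CPM, whereas the other KO rats of numbers 17 to 24 lay between 192 and 194 CPM.

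The genotype change differed between the rat number ranges for GALNT11 (-0.70 on the log2 scale, numbers 25 to 32 minus 17 to 24, edgeR adjusted p = 0.00950) and GALNT1 (-0.32, adjusted p = 0.0242, not past the threshold with library totals). For GALNT3 it differed between the species, by 0.55 higher in rats than in mice on the log2(scaled value + 1) scale (limma adjusted p = 9.10e-05). Their causes were not tested.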

How the results depend on the processing

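The depth of 19309371 to 44449845 reads per library limits GALNT13 in mice and in WT rats, where a few reads carry each value, and the number of animals limits the rest. No paired analysis was possible because the groups compared share no animal numbers. Under alternatives other than leaving out an animal, 275 member values kept direction and side of the threshold, 5 lost and 6 gained a call, 6 changed sign and 2 moved without a test. The number of symbols called rose from 751 in mice to 1198 with edgeR and 1520 with DESeq2 on the recovered reads, and from 1745 to 2656 for the change between rat ranges with library totals. Signs turned for GALNT7 in mice (-0.024 with edgeR, -0.027 with DESeq2) and, with library totals, for GALNT2 in the change between ranges (0.0016) and GALNT1 (-0.081), GALNT2 (-0.099) and GALNT11 (-0.043) between WT ranges. Library totals moved the share of higher calls from 55.3% to 79.4% in all rats and from 55.4% to 22.3% between WT ranges, with median shifts of 0.090 and -0.13 on the log2 scale. The GALNT13 species difference of 0.062 was 0.50 with a pseudocount of 0.1 and 4.02 with edgeR on reads. The causes were not tested.

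Leaving out 1 animal at a time gave 352 to 683 symbols called in mice, 2536 to 3478 in all rats, 504 to 930 in numbers 17 to 24, 3946 to 5242 in numbers 25 to 32, 1010 to 2392 for the change between ranges, 1852 to 2648 between WT ranges, 4311 to 5890 between KO ranges and 181 to 446 between species. Members called were 2 to 4 in all rats, 5 to 7 in numbers 25 to 32, 1 to 3 for the change between ranges and 4 to 7 between KO ranges. Signs turned for values near 0. GALNT10 ran from -0.0039 to 0.025 in mice, -0.0021 to 0.098 in all rats, -0.039 to 0.12 in numbers 17 to 24, -0.064 to 0.14 in numbers 25 to 32, -0.10 to 0.10 for the change between ranges, -0.14 to 0.018 between WT ranges, -0.17 to 0.019 between KO ranges and -0.0068 to 0.022 between species. GALNT7 ran from -0.019 to 0.026 in mice and GALNT2 from -0.050 to 0.011 in numbers 17 to 24. Between WT ranges GALNT11 ran from -0.020 to 0.20 and GALNT13 from -0.088 to 1.61, and the change of GALNT13 between ranges from -0.79 to 0.90, both resting on the 4 and 5 reads of the WT ranges.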
